A study of Homo sapiens with 30 samples.

Results

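Translation factors are the proteins, outside the ribosome itself, that start and drive protein synthesis. Initiation factors bring the initiator tRNA, the small ribosomal subunit and the capped messenger RNA together, and elongation factors then deliver each aminoacyl-tRNA and move the ribosome along. Many of their messenger RNAs begin with a 5′ terminal oligopyrimidine tract, a C followed by a run of pyrimidines, which makes their own translation depend on mTOR signalling. The genes described here were chosen by symbol in the deposited table: messenger RNA rows whose symbol starts with EIF and a digit, or with EEF1 or EEF2, without the EIF2AK kinases, EEF2K and the EEF1AKMT methyltransferases. That gave 62 of the 22382 genes of the table. Of these, 4 carry older symbols of the Argonaute genes (EIF2C1 to EIF2C4, now AGO1 to AGO4), which act in RNA silencing and are not translation factors. The other 58 were also taken by symbol alone, and not every one is a translation factor. EEF1E1, for one, codes for a scaffold of the multi-tRNA synthetase complex.

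The data come from SLAM-seq of 22Rv1, an established human line of castration-resistant prostate cancer. The uridine analogue 4-thiouridine (s4U) enters RNA made during labelling, and after treatment of the RNA with iodoacetamide it is read as C in place of T. Labelling at 800 µM s4U ran for 30 min in all groups, after which the 0 h cells were collected; in the others the medium was then exchanged for s4U medium with 1.2 µM KB742, 4 µM KI-ARv-03 or DMSO, and cells were taken 2, 4 or 8 h later. The 30 libraries formed 10 groups of 3, and nothing in the labels says that the 3 came from separate cultures, so p-values measure the spread between libraries, which may be technical. All groups were the same unmodified line, and the compounds were given at 1 dose each. The labels conflict in places: titles and the treatment protocol give 1.2 µM KB742, but the treatment field of all 9 KB742 samples reads 12 µM, and that field names another time for 8 of the 9 samples titled 4 h. Doses and times here follow the titles, so the KB742 dose and the 4 h results rest on them.

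The libraries held 3376884 to 9265131 reads behind the deposited scale, of which the 62 genes took 1.07% to 1.43% of the reads on genes. Summed levels of 9 luminal prostate markers were 1120 to 1796 CPM, and those of basal, endothelial and immune markers reached at most 1.26, 0.398 and 0.769 CPM; the 3 stromal markers summed to 0.520 to 24.0 CPM. In level, 4 libraries stood apart from their group mates (mean correlation under 0.87): 0 h replicate 3, KB742 2 h replicate 2, KB742 4 h replicate 3 and KI-ARv-03 8 h replicate 2. In conversion, KI-ARv-03 4 h replicate 1 also did, with 2.93 times the mean conversion of its mates. Each comparison was refitted without these libraries. Lost or gained calls of named genes are given for some comparisons, and for others only the new counts are.

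The start sites below are shown because changes in level are set beside the presence of such a tract. Promoter entries existed for 51 of the 62 genes. Each line is the RefSeq sequence on GRCh38.p14, from 30 bases before to 20 bases from the annotated start, written on the gene's own strand; capitals mark the run of C and T that begins at the annotated first base with a C, and a line without capitals has no such run of at least 5 letters. The positions are chr6:73521013-73521062 (minus strand) for EEF1A1, chr2:206159865-206159914 (plus) for EEF1B2, chr19:3985444-3985493 (minus) for EEF2, chrX:24054926-24054975 (plus) for EIF2S3, chr11:7987307-7987356 (plus) for EIF3F and chr12:53006426-53006475 (plus) for EIF4B. Those without a run are chr17:7572795-7572844 (plus) for EIF4A1, chrX:20141819-20141868 (minus) for EIF1AX, chr2:232551037-232551086 (plus) for EIF4E2 and chr1:32222377-32222426 (plus) for EIF3I. EEF1B2 and EIF4E2 each have 2 starts in the table, of which the one with the longer run was taken.
EEF1A1: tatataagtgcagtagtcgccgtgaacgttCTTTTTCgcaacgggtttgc
EEF1B2: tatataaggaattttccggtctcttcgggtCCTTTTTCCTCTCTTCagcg
EEF2: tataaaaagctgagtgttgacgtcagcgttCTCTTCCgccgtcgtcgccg
EIF2S3: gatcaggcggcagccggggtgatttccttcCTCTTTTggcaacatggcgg
EIF3F: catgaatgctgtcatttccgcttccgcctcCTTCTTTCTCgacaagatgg
EIF4B: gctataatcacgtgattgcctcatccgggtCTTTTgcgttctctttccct
EIF4A1: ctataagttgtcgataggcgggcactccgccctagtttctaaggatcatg
EIF1AX: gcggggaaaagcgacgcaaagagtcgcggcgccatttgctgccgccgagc
EIF4E2: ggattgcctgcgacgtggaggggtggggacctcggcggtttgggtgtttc
EIF3I: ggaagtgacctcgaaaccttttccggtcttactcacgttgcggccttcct

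Levels are reads on a gene's most-read transcript, as CPM, reads scaled to a common library size, after TMM rescaling. The libraries tag the 3′ end of a transcript, and levels were not divided by length, so values of different genes are amounts of reads and are not ranked as amounts of RNA. Of the 62 genes, 60 had reads and all 60 passed the filter on low counts. EIF3C and EIF3CL, near-identical copies that both encode an eIF3 subunit, had 0 reads in every library. Other rows are uncertain because copies elsewhere in the genome can take their reads: EEF1A1 had 43.3 CPM over all libraries while EIF5AL1, an intronless copy of EIF5A, had 932 CPM against 270.0 CPM for EIF5A itself. Any of these levels may combine or split reads of such copies. In bulk RNA, fewer cells and less RNA per cell cannot be told apart.

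In the DMSO series, which asks how the genes moved while labelling went on without a compound, 5 of 7 elongation genes and 6 of 12 eIF3 genes rose by 8 h. At 8 h against 0 h, 18 of the 60 genes were called higher and 5 lower (limma, Benjamini-Hochberg adjusted p under 0.05 over 11425 genes), where 49.0% of all genes were called, 20% higher and 29.1% lower. The median log2 difference of the 60 genes was 0.54, beside -0.14 over all genes. The size of these values depends on the scaling. With library-size scaling the median over all genes shifted by -0.73 and with the CPM as deposited by -0.59, and the split of the 60 genes became 6 higher and 18 lower by library size and 4 higher and 16 lower as deposited. Relative to the median of all genes, 37, 38 and 36 of 59 genes lay above it under TMM, library size and the deposited scale. All 18 genes called higher had a positive difference under every scaling, and 4 of them (EEF1A1, EEF1G, EIF3F and EIF3I) were called higher under all 3. EEF1B2 and EIF3L were also called by library size, and the other 12 under TMM scaling alone. The 5 called lower were called lower under all 3.

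Of the elongation genes, 5 of 7 were called higher and 1 lower, with a median difference of 1.58; EEF1A1 and EEF1G were the 2 called higher under every scaling. EEF2, the GTPase that moves the ribosome by a codon, had 4535, 4681 and 3467 CPM with DMSO at 8 h, against 1491, 1407 and 1824 CPM at 0 h. The groups did not overlap, and the log2 difference was 1.42 ± 0.37 (SE), called under TMM scaling alone. EEF1A1, which delivers aminoacyl-tRNA, had 76.9, 96.4 and 65.5 CPM with DMSO at 8 h, against 27.4, 24.5 and 10.7 CPM at 0 h. Every 8 h library again lay above every 0 h library, with a difference of 1.97 ± 0.31. EEF1G, a subunit of the exchange factor that reloads eEF1A with GTP, had 837, 1288 and 741 CPM with DMSO at 8 h, against 191, 138 and 217 CPM at 0 h. Its difference of 2.37 ± 0.54 was the largest rise among the 60 genes under TMM scaling. The other exchange factor subunits EEF1B2 and EEF1D rose by 1.58 ± 0.32 and 1.62 ± 0.51, although EEF1D was called under TMM scaling alone and EEF1B2 not with the CPM as deposited. EEF1E1, whose product is a scaffold of the multi-tRNA synthetase complex rather than an elongation factor, had 17.4, 17.4 and 7.39 CPM with DMSO at 8 h, against 42.7, 48.3 and 29.4 CPM at 0 h, and fell by 1.51 on the log2 scale. EEF1A2, the tissue-restricted paralog of EEF1A1, had 284, 120.5 and 301 CPM with DMSO at 8 h, against 116, 69.9 and 133 CPM at 0 h; these overlapped and the difference was not called.

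**Figure D1:**
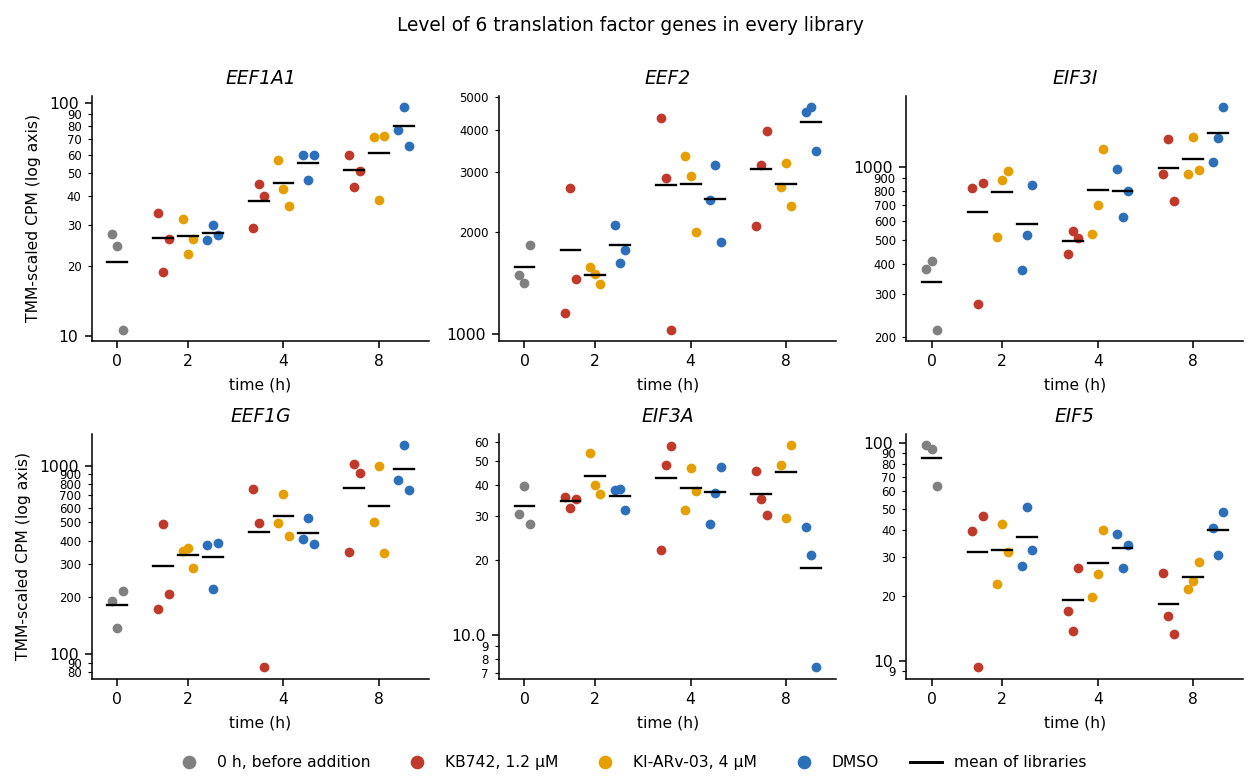
Level of 6 genes in each of the 30 libraries, in TMM-scaled CPM on a log axis, by time in h; within a time, KB742, KI-ARv-03 and DMSO stand from left to right, the 0 h libraries stand alone, dots are libraries and bars are means of 3. EEF1A1, EEF2, EIF3I and EEF1G with DMSO at 8 h lie above all 0 h libraries, EIF5 lies below them, and EIF3A with DMSO at 8 h lies below every other group's mean.

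eIF3, the large scaffold that holds initiation factors on the small subunit, had 6 of 12 tested subunit genes called higher and 1 lower, with a median of 0.96. EIF3I had 1053, 1325 and 1769 CPM with DMSO at 8 h, against 382, 408 and 214 CPM at 0 h. The groups were well apart, and the difference was 2.07 ± 0.39. EIF3F had 36.0, 30.2 and 29.5 CPM with DMSO at 8 h, against 9.45, 5.30 and 8.07 CPM at 0 h, a difference of 1.96 ± 0.46. EIF3L, EIF3H, EIF3K and EIF3E were the other 4 called higher, by 1.66, 1.38, 0.97 and 0.94. The EIF3K libraries overlapped those at 0 h. EIF3H, EIF3K and EIF3E were called higher under TMM scaling alone, and EIF3L not on the deposited scale. EIF3A, the largest eIF3 subunit, moved the other way, with 27.3, 20.9 and 7.39 CPM with DMSO at 8 h, against 30.8, 39.9 and 28.1 CPM at 0 h. Its libraries did not overlap, and it fell by 0.95 on the log2 scale. EIF3B, EIF3D, EIF3G, EIF3J and EIF3M did not pass. Without the libraries that stood apart the count was again 6 higher and 1 lower, but EIF3K (adjusted p = 0.120) and EIF3E (adjusted p = 0.0666) lost their calls and EIF3D (0.71) and EIF3G (1.31) gained one.

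Among the genes for start-site selection, 1 of 7 rose and 1 fell. EIF1, which holds the scanning ribosome open until a start codon is met, had 999, 1112 and 682 CPM with DMSO at 8 h, against 484, 417 and 641 CPM at 0 h. The lowest 8 h library was only just above the highest at 0 h, the difference was 0.85 ± 0.26, and under library-size scaling it was 0.04 and not called. Its paralog EIF1B had 36.6, 27.5 and 25.8 CPM with DMSO at 8 h, against 52.4, 58.9 and 25.8 CPM at 0 h, which was not called under TMM and was called lower under the other scalings. EIF5, the GTPase activator of eIF2, had 40.9, 30.6 and 48.0 CPM with DMSO at 8 h, against 97.5, 93.6 and 63.2 CPM at 0 h. It fell by 1.07 on the log2 scale, and its groups did not overlap.

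The next group holds the subunit genes of eIF2, which carries the initiator tRNA, and of its exchange factor eIF2B. EIF2A and EIF2D were added to it by symbol and are subunit genes of neither. Of these 10 genes, only EIF2S3 passed with all libraries, and EIF2B3 passed too without those that stood apart (0.89). EIF2S3, the GTP-binding subunit, had 396, 410.2 and 298 CPM with DMSO at 8 h, against 168, 180.4 and 93.1 CPM at 0 h. All 8 h libraries were higher, and the difference was 1.36 ± 0.24, called under TMM scaling alone. The other 2 subunit genes EIF2S1 and EIF2S2 had differences of -0.17 and -0.25 and did not pass under TMM; both were called lower by library size and on the deposited scale. The 5 eIF2B genes gave no call under TMM scaling.

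The cap complex recognises the capped end and unwinds the leader. Its group was formed by symbol, so it also counts genes outside that complex, among them EIF4A3, EIF4G2 and the EIF4EBP genes. In this group 3 of 16 genes rose and 1 fell, with a median of 0.06. The 3 were EIF4E2 and EIF4E3, cap-binding paralogs of eIF4E, and EIF4EBP2, which binds eIF4E and blocks initiation. EIF4E2 had 169.95, 234 and 116 CPM with DMSO at 8 h, against 90.5, 92.3 and 61.9 CPM at 0 h, a difference of 1.04 ± 0.24. EIF4E3 had 22.9, 13.2 and 12.0 CPM with DMSO at 8 h, against 9.14, 7.95 and 0.520 CPM at 0 h, a difference of 1.67 ± 0.54. Its call was lost without the libraries that stood apart, where the difference was 0.78 (adjusted p = 0.0851); the 0.520 CPM came from one of them, 0 h replicate 3. EIF4E itself, the canonical cap-binding protein, had 87.5, 108 and 54.5 CPM with DMSO at 8 h, against 125, 130.4 and 128 CPM at 0 h. EIF4E libraries with DMSO all lay lower, yet the difference of -0.67 ± 0.32 was called lower only under the other scalings. EIF4EBP2 had 198, 197 and 194 CPM with DMSO at 8 h, against 108, 113 and 106 CPM at 0 h. All 3 risers, EIF4E2, EIF4E3 and EIF4EBP2, were called higher under TMM scaling alone. EIF4EBP1 and EIF4EBP3 did not pass with all libraries; without those that stood apart they were called higher, by 1.33 (adjusted p = 0.0497) and 1.00 (adjusted p = 0.0137), and the cap complex then had 4 genes higher and 1 lower.

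The RNA helicase gene EIF4A1 had 507, 235 and 377 CPM with DMSO at 8 h, against 401, 378 and 890.03 CPM at 0 h, and its paralog EIF4A2 had 62.6, 89.9 and 41.5 CPM with DMSO at 8 h, against 87.8, 87.0 and 46.3 CPM at 0 h. Both pairs of groups overlapped, and neither gene passed under TMM scaling; EIF4A1 was called lower under both other scalings and EIF4A2 by library size. The scaffold genes also overlapped. EIF4G2 had 668, 728 and 476 CPM with DMSO at 8 h, against 449.8, 493 and 1072 CPM at 0 h. EIF4G1 had 105, 28.7 and 93.2 CPM with DMSO at 8 h, against 83.5, 74.8 and 202 CPM at 0 h. EIF4G3 had 50.9, 37.6 and 50.8 CPM with DMSO at 8 h, against 48.5, 47.3 and 31.7 CPM at 0 h. None of the 3 was called under TMM scaling, and EIF4G2 was called lower by library size. EIF4ENIF1, whose product carries eIF4E into the nucleus, was the gene that fell furthest: it had 0, 1 and 0 reads with DMSO at 8 h, against 25, 61 and 23 reads at 0 h. With 1 read against 109, the scaled ratio was 0.0209, with an exact 95% counting interval of 0.000525 to 0.119, which covers counting error only; its fitted difference of -3.06 depends on the pseudocount of 1.

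EIF5AL1 rose by 1.83 ± 0.57, with 911, 971 and 3528 CPM with DMSO at 8 h, against 434, 360.4 and 444 CPM at 0 h. Replicate 3 at 8 h stood far above its mates, and it was not called under the other scalings. EIF5A, the hypusine-bearing factor that relieves ribosome stalling, had 239, 163 and 503 CPM with DMSO at 8 h, against 92.6, 69.7 and 230.2 CPM at 0 h. EIF5A2, its paralog, had 4.96, 7.36 and 3.69 CPM with DMSO at 8 h, against 4.57, 4.69 and 0.520 CPM at 0 h. Neither pair was free of overlap, and neither gene was called; EIF5A was called higher without the libraries that stood apart (1.73). Of the Argonaute genes, EIF2C1 (AGO1) rose, with 33.5, 44.2 and 30.5 CPM with DMSO at 8 h, against 25.3, 20.6 and 13.3 CPM at 0 h. That call was made under TMM scaling alone, and it was lost without the libraries that stood apart (0.62, adjusted p = 0.0580). EIF2C2 (AGO2), the slicer of RNA interference, had 11.2, 10.1 and 11.1 CPM with DMSO at 8 h, against 38.4, 42.8 and 44.7 CPM at 0 h. It fell by 1.87 on the log2 scale, a change with no overlap between libraries.

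**Figure D2:**
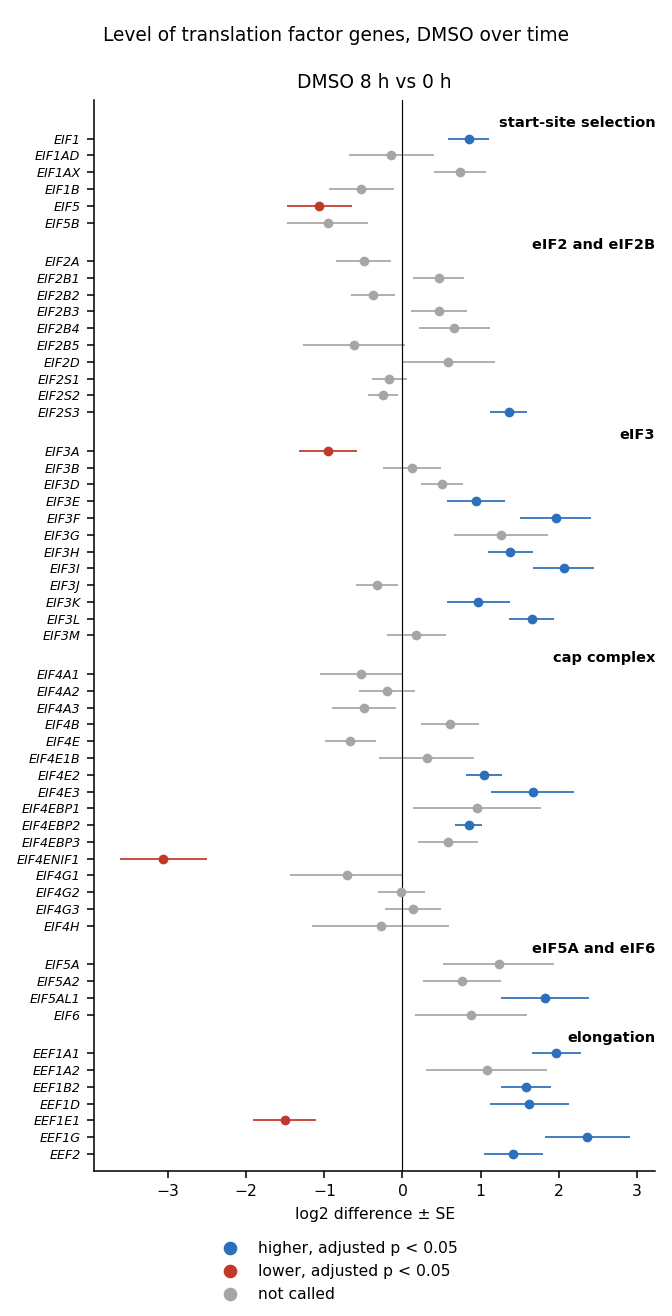
Log2 difference in level between DMSO at 8 h and 0 h for each tested translation factor gene, grouped by role, with bars of 1 SE; blue marks genes called higher, red genes called lower and grey those not called, under TMM scaling. Most calls in the higher direction lie in eIF3 and elongation, and scaling by library size would move the median of all genes by -0.73.

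The earlier DMSO times were set against the same 0 h libraries. At 2 h with DMSO, limma called 0 of the 60 genes (3 had an unadjusted p under 0.05, and edgeR and DESeq2 called 0 each), where 2.73% of all genes were called (0.0875% higher, 2.64% lower). Library-size scaling called 1 gene lower at this time and the deposited scale 2. At 4 h, 5 were higher and 3 lower, where 20.3% of all genes were called, 5.72% higher and 14.6% lower; without the libraries that stood apart these were 9 and 3, and under library-size or deposited scaling 1 and 4. The 5 were EIF3F, EEF1A1, EIF3I, EIF2S3 and EIF3L, with differences between 0.89 and 1.48. EIF3F had 19.6, 15.5 and 36.8 CPM with DMSO at 4 h, EEF1A1 had 59.8, 47.0 and 59.9 CPM and EIF3I had 979, 623 and 797 CPM. Each of these lay above all of its 0 h libraries given above. The 3 that fell were EIF5, with 38.2, 26.7 and 34.1 CPM with DMSO at 4 h, EIF2C2, with 21.6, 17.5 and 8.73 CPM, and EIF4ENIF1, with 0, 5 and 2 reads. At 8 h, leaving out the libraries that stood apart gave 20 genes higher and 5 lower: 19 of the 23 calls were kept, EIF2C1, EIF3E, EIF3K and EIF4E3 were lost, and EIF2B3, EIF3D, EIF3G, EIF4EBP1, EIF4EBP3 and EIF5A were gained.

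Start tracts were set beside these differences as a description. A C at the annotated first base with at least 4 further C or T letters was present in 12 of 67 promoters of the genes (17.9%, one in each of 12 genes), against 4.07% of all 35116 promoters in the table. Of the 12 genes, 6 were called higher with DMSO at 8 h and 0 lower under TMM scaling. The differences of the 12 had a median of 0.79 and ran between -0.49 and 1.97. The 6 were EEF1A1, EEF1B2, EEF2, EIF2S3, EIF3F and EIF3K. EEF1A1 and EIF3F were called higher under every scaling and EEF1B2 also by library size. The calls of EEF2, EIF2S3 and EIF3K held under TMM scaling alone, and EIF4A2, which has a tract, was called lower by library size. Of the 38 tested genes with a promoter but no tract, 8 were called higher and 3 lower, with a median of 0.13. Among those 8, EEF1G and EIF3I were called higher under every scaling and the rest under TMM scaling alone. Leaving out the libraries that stood apart gave 6 and 0 with a tract, EIF3D taking the place of EIF3K, and 9 and 3 without. EIF3I and EEF1G were among the strongest risers without a tract in this window. In a list of 11 genes known as terminal oligopyrimidine transcripts, 8 rose, 1 fell (EIF3A) and 2 did not pass at 8 h, with a median of 1.42. Without the libraries that stood apart these were 7 and 1, and the share of all genes called higher is given above. These counts too are under TMM scaling. In the list, EEF1A1, EEF1G and EIF3F were called higher under every scaling, EEF1B2 also by library size, and EEF1D, EEF2, EIF3E and EIF3H under TMM scaling alone. The list overlaps the 12 genes with a tract, as EEF1A1, EEF1B2, EEF2, EIF3F and EIF4B are in both. EEF1G is in the list although its window held no tract. In the 300 bases around the start, read on both strands, CCGGAAG was in 22.4% of the genes' promoters and 10.3% of all, CACGTG in 16.4% and 7.26%, AAGATGGC in 7.46% and 2.89%, and TATAAA in 4.48% and 11.5%. A match is a run of letters and no measured site.

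Of 34 other genes of the translation pathway, 32 were tested, and 5 rose and 9 fell with DMSO at 8 h, with a median of -0.35; these shares are near or below those of all genes given above, so the counts are no result about these genes. PABPC1, which binds the poly(A) tail, averaged 2312 ± 455 CPM with DMSO at 8 h and 877 ± 296 CPM at 0 h (SD, n = 3 each). DENR and MCTS1, partners in ribosome recycling, averaged 343 ± 58.4 and 249 ± 62.7 CPM with DMSO at 8 h, against 195 ± 36.9 and 102 ± 17.0 CPM at 0 h. In the falling direction, DDX3X, a helicase of initiation, averaged 55.2 ± 4.81 CPM with DMSO at 8 h and 184 ± 70.0 CPM at 0 h, and PELO, a ribosome rescue factor, 5.78 ± 1.91 and 24.2 ± 10.4 CPM.

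The level of no gene among the 60 passed the test with either compound at 2 or 4 h. KB742 and KI-ARv-03 are the compounds whose effect the study compared with DMSO. With limma, 0 of the 60 genes were called at 2 h with KB742 (0.0263% of all genes were called; 0 of the 60 had an unadjusted p under 0.05) and 0 at 4 h (0.114%, of which 0.0350% higher and 0.0788% lower; 1 of the 60). With KI-ARv-03, 0 were called at 2 h (0.0263%; 2 of the 60) and 0 at 4 h (0.0700%, of which 0.0175% higher and 0.0525% lower; 2 of the 60). edgeR and DESeq2 called 0 in each of these 4 comparisons. The median half-width of the 95% interval of a log2 difference was 0.73, so for many of these genes changes of that size could not be told from 0.

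At 8 h, limma called 0 of the 60 genes with KB742, where 1.83% of all genes were called, 1.23% higher and 0.595% lower (edgeR and DESeq2 called 0, and 7 genes had an unadjusted p under 0.05). KI-ARv-03 gave 1 call, EIF3A, where 2.94% of all genes were called, 1.95% higher and 0.989% lower. EIF3A had 48.1, 29.6 and 58.2 CPM with KI-ARv-03 at 8 h, against 27.3, 20.9 and 7.39 CPM with DMSO at 8 h. The libraries did not overlap, and the difference was 1.37 ± 0.37 (adjusted p = 0.0411). With KB742 at 8 h EIF3A had 45.8, 35.1 and 30.4 CPM, all above the same DMSO libraries, with a difference of 1.12 ± 0.37 that did not pass (adjusted p = 0.124). The EIF3A call was absent under edgeR, without the filter, with the compared groups fitted alone and with a replicate block, while DESeq2 and library-size scaling each called 2 genes. The doses of the compounds differ, so their values stand side by side without a comparison.

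Without KI-ARv-03 8 h replicate 2 and the other 3 libraries that stood apart, 10 genes were called with KI-ARv-03 at 8 h, 4 higher and 6 lower. The 4 were EEF1E1 (1.67), EIF3A (1.64), EIF4A2 (1.36) and EIF4E (1.11), and the 6 were EIF4EBP1 (-2.11), EEF1A2 (-1.93), EIF6 (-1.78), EIF3G (-1.71), EEF1D (-1.55) and EEF1G (-1.15), as log2 differences. KI-ARv-03 8 h replicate 2 had 234 CPM of EIF4EBP1 and 673 CPM of EEF1A2, where its mates had 23.5 and 11.6 CPM of EIF4EBP1 and 72.8 and 43.4 CPM of EEF1A2. The DMSO libraries at 8 h had 57.1, 78.2 and 92.3 CPM of EIF4EBP1 and 284, 120.5 and 301 CPM of EEF1A2, between these. The omitted KI-ARv-03 library correlated at 0.973 with KB742 8 h replicate 2, which was kept, and on average at 0.863 with its mates. KB742 at 8 h showed a like split, with 182, 1166 and 333 reads of EEF1A2 and 84, 401 and 119 of EIF4EBP1. Whether the 6 lower calls belong to the compound or to such differences between libraries was not tested. With KB742 at 8 h the same omission gave 2 lower genes, EIF1AD (-1.69), a relative of EIF1AX with few reads, and EIF5 (-1.11). None of the omitted libraries was in the KB742 or DMSO groups at 8 h, so these differences did not change. The 2 calls came with a changed estimate of the spread over all groups. EIF1AD rested on 4, 14 and 1 reads with KB742 at 8 h, against 10, 25 and 16 with DMSO. EIF5 had 25.3, 16.1 and 13.3 CPM with KB742 at 8 h, against 40.9, 30.6 and 48.0 CPM with DMSO at 8 h, and did not overlap in any library. The compound effect on level at 8 h did not differ from that at 2 h for any of the 60 genes by limma, edgeR or DESeq2: 0 were called for each compound, where 0.00875% of all genes were called, with 4 (KB742) and 3 (KI-ARv-03) at an unadjusted p under 0.05.

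**Figure D3:**
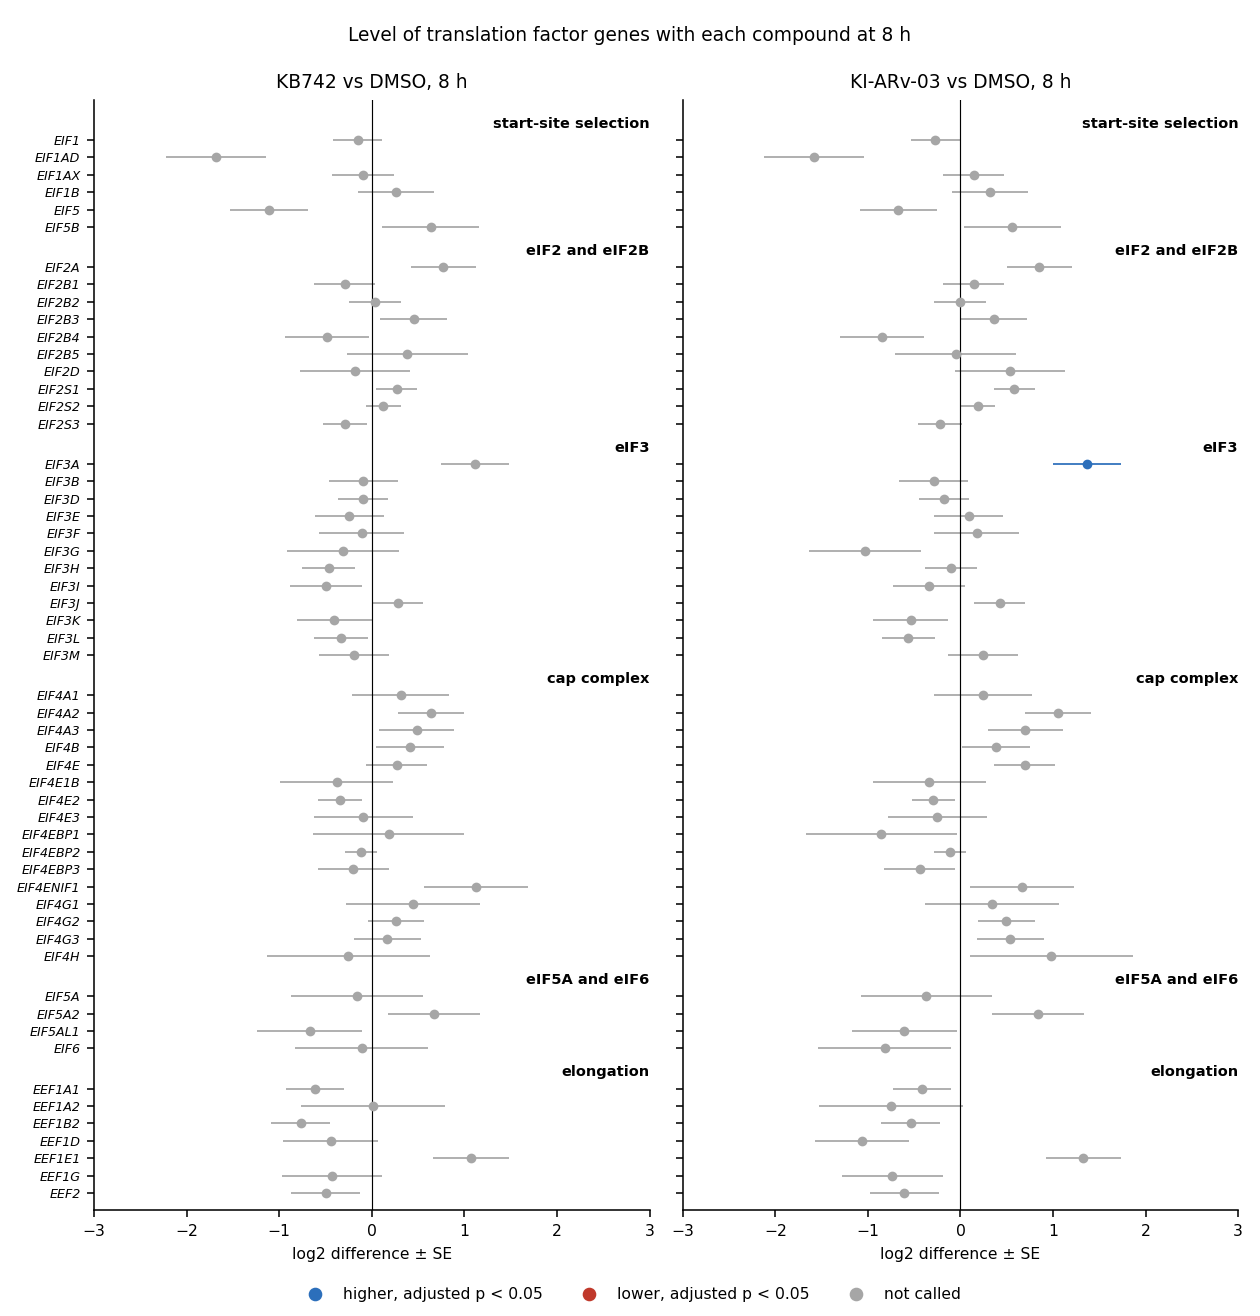
Log2 difference in level between each compound and DMSO at 8 h for the tested translation factor genes, by role, with bars of 1 SE; KB742 at 1.2 µM is on the left and KI-ARv-03 at 4 µM on the right, and both panels share the DMSO libraries. EIF3A with KI-ARv-03, at 1.37, is the single called gene, and most other differences lie within 1 of 0.

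Conversion is given in percent as the deposited table scales it; its denominator is not in the table. It was tested where a value rested on at least 20 reads, and differences in tests are on the arcsine square-root scale. With DMSO the conversion of these genes rose with time, as labelling went on. The median over the genes was 0.193% at 0 h, 0.447% at 2 h, 0.656% at 4 h and 0.872% at 8 h. At 2 h, 8 of 55 tested genes were higher than at 0 h (8.61% of all genes tested were), at 4 h 22 of 55 (34.9%) and at 8 h 29 of 52 (42.9%); 0 were lower at any time, where 0.0361%, 0.0383% and 0.0463% of all genes were. Leaving out the 5 libraries that stood apart gave 2, 18 and 24.

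The genes differed widely in how far they became converted. EIF2B4, the delta subunit of eIF2B, had the highest values among tested genes, with 13.2%, 24.6% and 4.43% with DMSO at 8 h, against 0.294%, 1.03% and 0% at 0 h. EIF4A1 reached 3.67%, 11.9% and 6.60% with DMSO at 8 h, against 0.987%, 0.857% and 0.348% at 0 h. EIF5 reached 5.97%, 7.31% and 8.36% with DMSO at 8 h, against 1.09%, 0.542% and 0.185% at 0 h. None of these 3 overlapped between the times, although the libraries of EIF2B4 spread more than 5-fold. EIF2B4 had 7.44%, 6.42% and 16.9% at 4 h. EIF4E2 had 5.79%, 3.32% and 2.40% with DMSO at 4 h and 3.78%, 6.54% and 7.07% at 8 h, against 0.665%, 0.351% and 0.333% at 0 h. At 2 h the 3 largest rises among called genes were EEF1A1, with 1.81%, 7.02% and 6.86%, EIF5, with 2.19%, 2.97% and 5.59%, and EIF4E2, with 1.78%, 1.59% and 2.50%; EEF1A1 overlapped its 0 h libraries, which had 0.897%, 1.93% and 0.729%. All 3 calls were lost without the libraries that stood apart. EIF2B4 had a larger mean difference at 2 h, with 3.56%, 5.64% and 5.13%, all above 0 h, but was not called (adjusted p = 0.0831).

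Paralogs differed in conversion level. With DMSO at 8 h EIF1B had 3.22%, 5.66% and 3.82%, where EIF1 had 0.850%, 1.49% and 1.94%. EIF4E2 stood above EIF4E, which had 2.31%, 1.83% and 2.38%, and EIF4E3 had 0.147% and 0.149% in its 2 libraries with enough reads. EIF4A2 had 1.43%, 3.60% and 1.10% with DMSO at 8 h, against 1.78%, 1.44% and 2.46% at 0 h, and unlike EIF4A1 it was not called. EIF4G3 had 1.92%, 3.17% and 1.09%, EIF4G1 had 1.08%, 2.16% and 0.760% and EIF4G2 had 0.496%, 0.663% and 0.376%, in the same libraries. EEF1A1 had 2.47%, 4.89% and 7.47%, and EEF1A2 had 0.0740%, 0.558% and 0.936%. EIF5A had 0.581%, 1.11% and 1.27%, and EIF5AL1 had 0.537%, 0.617% and 0.598%. These are descriptions, since no test was made between genes.

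Genes whose level rose with DMSO under TMM scaling could still carry little conversion. Of the genes below, EIF3I and EEF1G were called higher in level under every scaling, but EEF2 and EIF2S3 under TMM scaling alone. EEF2 rose to a mean of 4228 CPM at 8 h and had 0.256%, 0.453% and 0.440% conversion there, against 0.121%, 0.149% and 0.184% at 0 h. EIF3I had 0.294%, 0.618% and 0.300% with DMSO at 8 h, against 0.247%, 0.147% and 0% at 0 h, a call that was lost without the libraries that stood apart. EIF2S3 had 0.0390%, 0.396% and 0.401% with DMSO at 8 h, against 0.105%, 0.143% and 0.191% at 0 h, and was not called. EEF1G had 0.143%, 0.434% and 0.141% with DMSO at 8 h, against 0.171%, 0.176% and 0.0240% at 0 h, and was not called either at this time. EIF5 had the reverse pair of values, a level that fell by 1.07 on the log2 scale and a mean conversion of 7.21% with DMSO at 8 h.

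**Figure D4:**
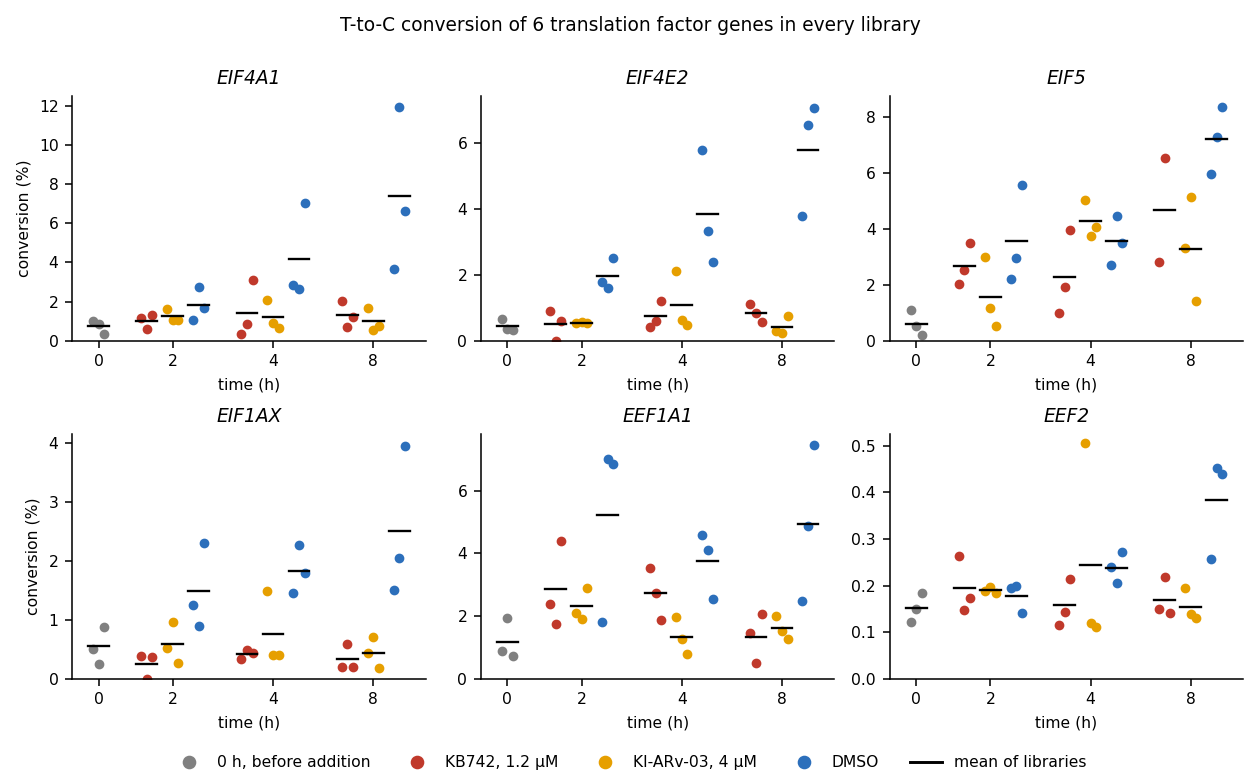
Conversion in percent of 6 genes in each library, by time in h; within a time, KB742, KI-ARv-03 and DMSO stand from left to right, the 0 h libraries stand alone, dots are libraries with at least 20 reads and bars are their means. EIF4A1, EIF4E2, EIF1AX and EEF1A1 with both compounds at 8 h lie below all DMSO libraries of that time, and the high KI-ARv-03 dot at 4 h in EEF2 is the library whose overall conversion stood apart.

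The conversion of many of these genes was lower with either compound than with DMSO at 8 h. With KB742, 20 of 52 tested genes were lower than with DMSO at 8 h and 0 higher, where 34.7% of all genes tested were lower. In the KI-ARv-03 comparison 21 of 52 were lower and 0 higher, where 36.8% were lower and 0.0158% higher (36.9% in all). The share of these genes is therefore near that of all genes in both comparisons. Leaving out the libraries that stood apart gave counts of 23 and 25, and by role they then moved by at most 2 genes. For KB742 none of these libraries was in the compared groups, so its differences stayed the same. Only the estimate of the spread changed there, and the refit is no check of the KB742 calls against outlying libraries. Of the called genes, 19 of 20 in the KB742 comparison and 21 of 21 in the KI-ARv-03 comparison had no library overlapping those with DMSO, and EIF1 was the exception with KB742. The called genes were picked by the test on the same libraries, so this separation is no further result about them. The mean conversion of a whole library averaged 0.395% with KB742, 0.344% with KI-ARv-03 and 1.23% with DMSO at 8 h. The median over the genes was 0.318% with KB742, 0.244% with KI-ARv-03 and 0.872% with DMSO.

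Among the called genes, EIF4A1 and EIF4E2 had the largest falls in percent with either compound at 8 h. EIF4A1 had 2.01%, 0.718% and 1.19% with KB742 and 1.65%, 0.567% and 0.747% with KI-ARv-03 at 8 h, against 3.67%, 11.9% and 6.60% with DMSO. EIF4E2 had 1.10%, 0.839% and 0.565% with KB742 and 0.307%, 0.220% and 0.743% with KI-ARv-03 at 8 h, against 3.78%, 6.54% and 7.07% with DMSO. For both genes every compound library lay below every DMSO library. Adjusted p was 7.61e-05 with KB742 and 6.16e-05 with KI-ARv-03 for EIF4A1, and 7.13e-06 and 1.21e-06 for EIF4E2, in that order of compounds. The level of neither gene was called with either compound at 8 h. EIF4A1 had 263, 559.8 and 581 CPM with KB742 and 286, 707 and 369 CPM with KI-ARv-03 at 8 h, against 507, 235 and 377 CPM with DMSO.

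By role, start-site selection had 3 of 6 genes lower in the KB742 comparison and 4 of 6 in the KI-ARv-03 comparison. EIF1AX, which helps eIF2 deliver the initiator tRNA, had 0.202%, 0.588% and 0.195% with KB742 and 0.442%, 0.705% and 0.174% with KI-ARv-03 at 8 h, against 1.50%, 2.05% and 3.96% with DMSO. EIF1B had 0.802%, 1.59% and 0.889% with KB742 and 0.462%, 0.300% and 1.16% with KI-ARv-03 at 8 h, against 3.22%, 5.66% and 3.82% with DMSO. Both were below DMSO in every library. EIF5 had 3.32%, 5.14% and 1.42% with KI-ARv-03, lower in every library (adjusted p = 0.0230). With KB742 EIF5 had 2.82% and 6.54% in the 2 libraries with enough reads, and it was not called.

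The group of eIF2 and eIF2B, with EIF2A and EIF2D counted in it, had 3 of 10 lower in the KB742 comparison, EIF2A, EIF2S1 and EIF2S2. In the KI-ARv-03 comparison 2 of 10 were lower, EIF2S1 and EIF2S2. EIF2S1, whose product is the phosphorylated subunit through which stress shuts off initiation, had 0.209%, 0.421% and 0.672% with KB742 and 0.647%, 0.329% and 0.413% with KI-ARv-03 at 8 h, against 1.87%, 1.93% and 1.82% with DMSO. EIF2S2, which codes for the beta subunit, had 0.296%, 0.518% and 0.243% with KB742 and 0.333%, 0.204% and 0.299% with KI-ARv-03 at 8 h, against 1.06%, 2.28% and 2.52% with DMSO. Neither gene overlapped. EIF2B4 had 9.71%, 4.20% and 3.67% with KB742 and 8.39%, 9.88% and 5.13% with KI-ARv-03, which overlapped DMSO and was not called. eIF3 had 4 of 12 lower with each compound, among them EIF3B, EIF3G and EIF3K with both. EIF3G had 1.79%, 1.57% and 0.904% with KB742 and 0.859%, 0.695% and 0.487% with KI-ARv-03 at 8 h, against 2.31%, 5.87% and 3.69% with DMSO.

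The cap complex group, formed by symbol, had 6 of 13 lower in the KB742 comparison and 7 of 13 in the KI-ARv-03 comparison. EIF4A1, EIF4A3, EIF4E, EIF4E2, EIF4G1 and EIF4G2 were lower with both. EIF4G3 was lower with KI-ARv-03, a call that was lost without the libraries that stood apart. EIF4E had 0.474%, 0.616% and 0.436% with KB742 and 0.291%, 0.451% and 0.486% with KI-ARv-03 at 8 h, against 2.31%, 1.83% and 2.38% with DMSO. Elongation had 3 of 7 lower with each compound, EEF1A1, EEF1D and EEF2. EEF1A1 had 1.45%, 0.503% and 2.06% with KB742 and 2.01%, 1.52% and 1.28% with KI-ARv-03 at 8 h, against 2.47%, 4.89% and 7.47% with DMSO. EEF2 had 0.149%, 0.218% and 0.140% with KB742 and 0.194%, 0.138% and 0.130% with KI-ARv-03 at 8 h, against 0.256%, 0.453% and 0.440% with DMSO. EEF2 was lower in every compound library, with adjusted p of 0.0236 for KB742 and 0.0140 for KI-ARv-03. EIF5AL1 was lower with both compounds. Of the 34 other pathway genes, 12 of 25 tested were lower in the KB742 comparison and 12 of 26 in the KI-ARv-03 comparison. Of all genes tested, 34.7% and 36.8% were lower in these comparisons, and the shares were not tested against each other. MKNK2, the kinase of eIF4E, averaged 0.641% ± 0.162 with KB742 and 0.603% ± 0.203 with KI-ARv-03 at 8 h, against 5.33% ± 1.84 with DMSO (SD, n = 3 each). ATF4, the stress-induced transcription factor, averaged 0.852% ± 0.279 with KB742 and 1.25% ± 0.147 with KI-ARv-03 at 8 h, against 2.91% ± 0.874 with DMSO.

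**Figure D5:**
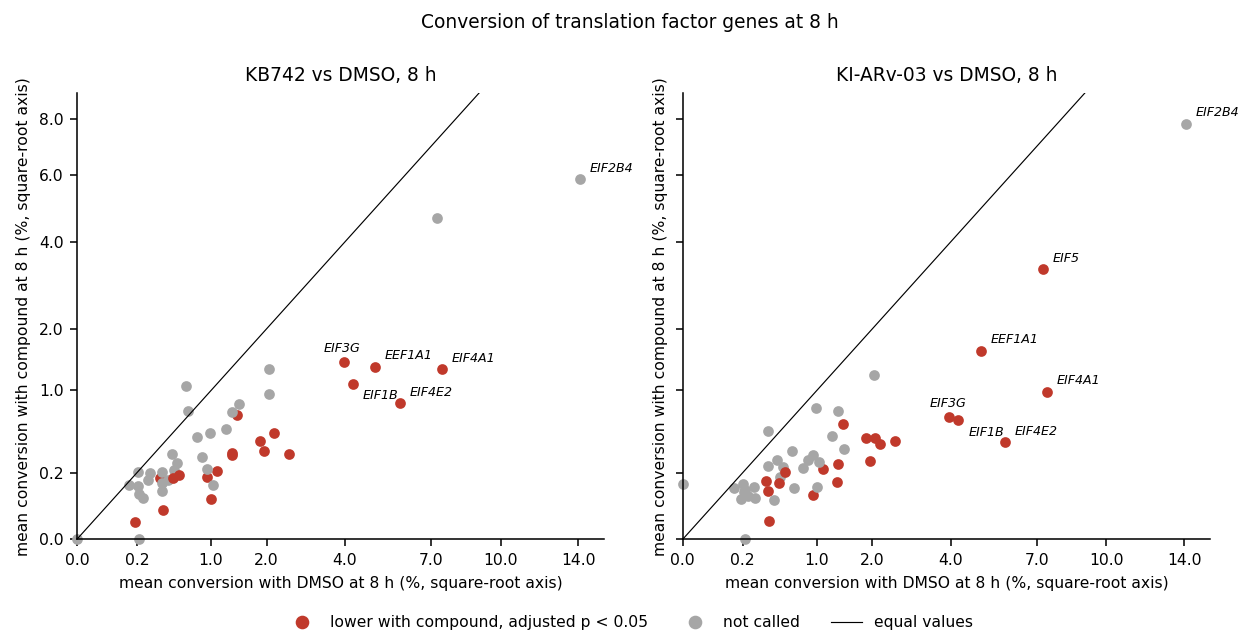
Mean conversion at 8 h of each tested translation factor gene with KB742 (left) or KI-ARv-03 (right) on the vertical axis and with DMSO on the horizontal axis, in percent on square-root axes; red marks genes called lower with the compound, grey those not called, and the line marks equal values. EIF4A1 and EIF4E2 are the called genes furthest below the line, and EIF2B4, at 14.1% with DMSO, lies below it too but was not called with either compound.

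Fewer genes passed at the earlier times. At 2 h with KB742, 1 of 55 was lower, where 0.852% of all genes were: EIF1AX, with 0.384%, 0% and 0.361% with KB742 at 2 h, against 1.24%, 0.901% and 2.30% with DMSO. This call was absent without the libraries that stood apart, among them KB742 2 h replicate 2, which held the 0%. With KI-ARv-03 at 2 h, limma called 0 of 54 (12 had an unadjusted p under 0.05), where 0.808% of all genes were lower. Without the libraries that stood apart 2 were called, EIF3I and EIF4E, although none of those libraries was in either compared group. At 4 h with KB742, 6 of 55 were lower, EIF1, EIF1AX, EIF2B1, EIF3B, EIF4A1 and EIF4E2, where 17.5% of all genes were lower and 0.0262% higher. EIF4E2 had 0.414%, 0.598% and 1.20% with KB742 at 4 h, against 5.79%, 3.32% and 2.40% with DMSO. EIF1AX had 0.334%, 0.485% and 0.435% with KB742 at 4 h, against 1.45%, 2.26% and 1.79% with DMSO. EIF4A1 overlapped at this time, with 0.330%, 0.836% and 3.10% with KB742 at 4 h, against 2.84%, 2.66% and 7.04% with DMSO; the 3.10% came from the KB742 library that stood apart. Without the libraries that stood apart, 15 genes were lower.

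At 4 h with KI-ARv-03, 3 of 55 were lower, EIF3G, EIF4A1 and EIF4E2, where 7.41% of all genes were called, 7.36% lower and 0.0524% higher. EIF3G had 0.930%, 0.198% and 0.504% with KI-ARv-03 at 4 h, against 2.92%, 1.87% and 4.06% with DMSO. EIF4A1 had 2.10%, 0.910% and 0.663% with KI-ARv-03 at 4 h, and EIF4E2 had 2.11%, 0.614% and 0.482%, both below all DMSO libraries of that time. The first library of this group was the one with raised conversion throughout, and it was the highest of the 3 for each of these 3 genes. Without the libraries that stood apart, 17 genes were lower.

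The difference between 8 h and 2 h was tested as well. The difference in conversion of KI-ARv-03 from DMSO was more negative at 8 h than at 2 h for 4 of 51 genes, EIF1B, EIF2S1, EIF4A1 and EIF4E2. Of all genes, 5.39% were called in that direction and 0.0161% in the other. Without the libraries that stood apart these 4 were kept and EEF2 and EIF2S2 were added, 6 in all. For KB742 the same test called 0 of 52 (4.69% of all genes; 5 had an unadjusted p under 0.05), and 6 were called without the libraries that stood apart: EIF1B, EIF2S1, EIF4A1, EIF4E2, EEF2 and EIF4G2.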

How the data were processed

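The authors deposited 1 table of RefSeq transcripts with a signal per library, headed CPM, and a conversion fraction per library; the build was hg19, per the submitters' processing notes, and no source used here names the aligner or the conversion caller. Deposited CPM values were whole multiples of a library's smallest step (100% within 0.05 of a whole number), so whole reads were recovered; planned tests were kept. Columns not matched to a sample numbered 0. Each gene was represented by its most-read transcript. Levels were tested with limma 3.58.1 (R 4.3.3; trended variances) on log2(CPM + 1) after edgeR 4.0.16 TMM scaling, with filterByExpr at a minimum count of 10 and all 30 libraries in 1 fit; fold changes of low genes are understated by the pseudocount. For conversion, limma was run on arcsine square-root values, with at least 20 reads per value and at least 2 values per group. edgeR and DESeq2 1.42.0 on recovered reads, other scalings, filters, pseudocounts, scales, left-out libraries and a replicate block were alternatives. Scripts were tested on simulated data. Genes given per library were those with most reads in a role, the 3 largest calls per direction and comparison, and paralogs; other genes are named to complete a count or were chosen after their values were seen. The genes, lists and tests were chosen with earlier results of these data known. Times and doses were taken from the titles where the treatment field differed. The Y-linked EIF1AY enters counts and is not described.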

Additional observations from a re-analysis of the deposited data

Results flagged for a closer look

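For 4 genes the KI-ARv-03 effect on conversion differed between 8 h and 2 h, by limma's test of the difference over all genes tested, on the arcsine square-root scale. EIF4A1 differed by -0.15 (adjusted p = 0.0223): it had 1.65%, 0.567% and 0.747% with KI-ARv-03 at 8 h, against 3.67%, 11.9% and 6.60% with DMSO, and 1.64%, 1.05% and 1.08% with KI-ARv-03 at 2 h, against 1.07%, 2.75% and 1.66% with DMSO. EIF4E2 differed by -0.11 (adjusted p = 0.0360), with 0.539%, 0.574% and 0.524% with KI-ARv-03 at 2 h, against 1.78%, 1.59% and 2.50% with DMSO. EIF1B differed by -0.15 (adjusted p = 0.0494), with 0.850%, 1.85% and 2.73% with KI-ARv-03 at 2 h, against 0.515%, 1.95% and 1.08% with DMSO. EIF2S1 differed by -0.09 (adjusted p = 0.0421), with 0.334%, 0.853% and 0.796% with KI-ARv-03 at 2 h, against 0.216%, 0.330% and 0.591% with DMSO. None of the 4 was called on the log2 scale of conversion. The 4 are 4 of 51 genes, where 5.41% of all genes were called in either direction. Without the libraries that stood apart all 4 were still called, with EEF2 and EIF2S2 added. Single genes were not searched for an outlying library, since groups of 3 are too small for that rule.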

How the results depend on the processing

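Counts are called genes among those tested, and the cause of each shift was not tested. For levels, KI-ARv-03 at 8 h gave 1 call, against 2 by library size, 2 by DESeq2, 0 by edgeR, 0 without the filter, 0 with the compared groups alone, 0 with the replicate block and 10 without the 4 libraries that stood apart, an omission chosen after seeing the data that also gave 2 for KB742 at 8 h and 1 for DMSO at 2 h. DMSO at 2 h gave 0, against 1 by library size and 2 as deposited. DMSO at 4 h gave 8, against 5 by library size, 5 as deposited and 13 with the compared groups alone. For conversion, the compared groups alone gave 0, 10 and 13 for KB742 at 2, 4 and 8 h and 3 for DMSO at 2 h. The log2 scale gave 0 for KB742 at 2 h, 0 for KI-ARv-03 at 4 h and 0 for the KI-ARv-03 effect at 8 h against 2 h. Without the 5 libraries that stood apart there were 0 and 15 for KB742 at 2 and 4 h, 2 and 17 for KI-ARv-03 at 2 and 4 h, 2 for DMSO at 2 h and 6 for the KB742 effect at 8 h against 2 h. Leaving out each library in turn gave level counts of 0 to 1 for KB742 at 8 h, 0 to 4 for KI-ARv-03 at 8 h, 4 to 7 for DMSO at 4 h, 19 to 22 for DMSO at 8 h and 0 to 0 elsewhere. It gave conversion counts of 0 to 2, 2 to 8 and 11 to 20 for KB742 at 2, 4 and 8 h, 0 to 1, 0 to 15 and 13 to 24 for KI-ARv-03, 0 to 8, 13 to 21 and 20 to 30 for DMSO, and 0 to 1 (KB742) and 0 to 5 (KI-ARv-03) for the effect at 8 h against 2 h.

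No called gene changed direction under any alternative, but the balance over the genes did with the scaling: the median difference with DMSO at 8 h was 0.54 under TMM, -0.23 by library size and -0.18 as deposited, and the split of calls was 18 higher and 5 lower, 6 and 18, and 4 and 16; at 4 h it was 5 and 3, against 1 and 4 under both others. Replicate numbers did not pair the samples within the comparisons with DMSO and with 0 h. Correlations of same-numbered libraries ran from -0.36 to 0.45 there, with 7 of 27 over 0.1. The compounds were not set against each other in this check. At 8 h, KI-ARv-03 replicates 1 and 2 correlated with the same-numbered KB742 libraries at 0.983 and 0.973. KI-ARv-03 replicate 3 was instead closest to KB742 replicate 1, at 0.974. The replicate block changed no other count of called genes by over 1.5 times. Counting intervals cover counting error only, and the table counts reads, not molecules.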
